A study of Mus musculus with 18 samples.

Results

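The immediate-early genes Fos, Fosb, Fosl1, Jun, Junb, Egr1, Egr2, Ier2, Dusp1 and Nr4a1 were followed in isolated mouse pancreatic islets on Affymetrix gene arrays. These 10 genes were taken by name, as markers of stimulation or of stress during islet isolation, and each was read from its own transcript cluster, the probe group that the array summarises as 1 value. A cluster of its own was found for 9 of the 10 genes, out of 22180 such genes in all. Fosl1 was named only in a row shared with Ccdc85b and was not analysed here. All 9 passed the filter on dim genes, which left 15526 genes for testing.

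Islets came from C57BL/KsJ db/db mice, C57BL/6J ob/ob mice and the lean control mice of each strain, at 6 and 16 weeks of age. The db/db mutation removes the long form of the leptin receptor and the ob/ob mutation removes leptin itself; both make mice obese, and the study's title sets diabetes-prone against diabetes-resistant obese mice. The 8 groups, below called lean KsJ, db/db, lean 6J and ob/ob at each age, held 2 arrays each in the larger table of deposited values, 16 arrays in all. A smaller table held 2 more arrays, 1 lean KsJ and 1 db/db of 16 weeks. All mice came from 1 institute's breeding colonies with free access to food, and their islets were picked by hand under a microscope before RNA extraction. Nothing in the labels tells whether a group's arrays stand for separate mice, pools or repeats. By sex-linked genes read below, the 2 arrays of lean KsJ at each age and of lean 6J at 6 weeks differed in sex. The arrays of those groups were therefore not repeats of 1 sample, and for the other groups this is not known. The p-values measure only the spread between these samples, which may be technical where a group's arrays were repeats.

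Immediate-early genes are transcribed within minutes of a signal because the factors that switch them on are already in the cell. Calcium, cyclic AMP and MAP kinase signals reach them through CREB at cyclic AMP response elements and through SRF and ETS factors at serum response elements, and most of their products are short-lived transcription factors. Fos, Fosb, Jun and Junb encode subunits of the AP-1 dimer, Egr1 and Egr2 zinc-finger factors, and Nr4a1 an orphan nuclear receptor. Ier2 encodes a small nuclear protein, and Dusp1 a phosphatase that switches MAP kinases off again. In beta cells, glucose and other depolarising stimuli induce several of them, and so does the enzymatic and mechanical handling of tissue.

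The arrays carried islet signal. The 9 beta cell markers averaged 10.67 to 11.56 on the log2 scale of the deposited values, and array medians lay between 3.51 and 3.83. Markers of other tissues stood out on 3 arrays. The 6 acinar markers averaged 12.97 on lean KsJ replicate 2 of 16 weeks, against 7.28 to 11.64 on the other arrays. The 8 enterocyte markers averaged 10.94 on lean 6J replicate 2 of 6 weeks and 9.29 on db/db replicate 2 of 16 weeks, against a median of 3.94. Of the lymphocyte markers, Cd3g and Ms4a1 lay below the filter. All KsJ titles in the larger table carry a code that differs from the code on all 6J titles, so strain and whatever the code marks cannot be told apart. In these bulk samples, fewer cells of a type and less RNA per cell cannot be told apart either.

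Promoters are shown because the members' arrays moved together, as described below, and because signals converge on this DNA. Windows of 7 of the 10 genes, namely Fos, Fosb, Jun, Junb, Egr2, Dusp1 and Nr4a1, were read from the RefSeq table for GRCm38.p6. Those of Fosl1, Egr1 and Ier2 were not searched, so the counts of genes below cover these 7 only. The 250 bases before the start are printed 5′ to 3′ on the gene's strand. They cover chr12:85473640-85473889 for Fos on the plus strand, chr7:19310046-19310295 for Fosb on the minus strand and chr8:84978749-84978998 for Junb on the minus strand. For Dusp1 they cover chr17:26508473-26508722 on the minus strand, for Egr2 chr10:67537620-67537869 on the plus strand and for Nr4a1 chr15:101266596-101266845 on the plus strand. Capitals mark the core of the cyclic AMP response element, TGACG on either strand (CGTCA when read on the other one), the full element TGACGTCA, and the CArG box at the heart of the serum response element.
Fos: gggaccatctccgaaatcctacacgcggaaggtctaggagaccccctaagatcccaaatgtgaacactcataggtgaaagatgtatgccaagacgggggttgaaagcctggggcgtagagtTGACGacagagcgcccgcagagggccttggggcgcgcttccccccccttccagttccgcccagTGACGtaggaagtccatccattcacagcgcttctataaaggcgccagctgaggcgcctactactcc
Fosb: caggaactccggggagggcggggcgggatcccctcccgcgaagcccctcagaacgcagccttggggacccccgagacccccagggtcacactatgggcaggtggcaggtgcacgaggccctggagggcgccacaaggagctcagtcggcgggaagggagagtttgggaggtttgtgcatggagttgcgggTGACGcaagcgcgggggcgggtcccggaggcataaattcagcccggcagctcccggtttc
Junb: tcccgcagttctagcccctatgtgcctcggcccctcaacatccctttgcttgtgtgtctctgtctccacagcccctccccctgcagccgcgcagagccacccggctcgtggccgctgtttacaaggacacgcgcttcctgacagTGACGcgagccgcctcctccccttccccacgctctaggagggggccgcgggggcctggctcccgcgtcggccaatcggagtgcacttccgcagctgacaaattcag
Dusp1: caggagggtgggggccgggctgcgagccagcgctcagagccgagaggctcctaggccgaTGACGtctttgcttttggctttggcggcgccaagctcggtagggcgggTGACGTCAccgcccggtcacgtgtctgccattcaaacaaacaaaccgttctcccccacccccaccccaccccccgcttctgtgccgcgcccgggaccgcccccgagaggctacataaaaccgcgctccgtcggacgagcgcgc
Egr2: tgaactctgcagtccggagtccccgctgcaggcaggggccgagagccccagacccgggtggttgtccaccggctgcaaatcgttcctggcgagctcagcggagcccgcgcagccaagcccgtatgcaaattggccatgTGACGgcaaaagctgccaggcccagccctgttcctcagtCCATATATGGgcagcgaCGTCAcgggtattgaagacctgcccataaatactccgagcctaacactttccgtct
Nr4a1: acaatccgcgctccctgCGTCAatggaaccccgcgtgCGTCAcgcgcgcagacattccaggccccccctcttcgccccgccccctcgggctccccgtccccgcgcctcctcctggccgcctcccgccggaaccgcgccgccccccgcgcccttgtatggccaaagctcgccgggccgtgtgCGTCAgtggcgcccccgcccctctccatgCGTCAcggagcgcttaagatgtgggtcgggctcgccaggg

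The core TGACG stood in the windows of 6 of the 7 genes, against 17.8% of all 32851 windows and 19.8% of 27025 genes in the table. Fos had it 129 and 66 bases before the start, and TATAAA at 33 bases. Nr4a1 had 4 copies, all on the other strand. Jun was the gene without this core. The full element TGACGTCA, which contains the core on both strands, was found in Dusp1, 143 bases before the start, and in 1.55% of all windows. The CArG box was found in Egr2, 73 bases before the printed start, and in 1.47% of all windows. The EGR site GCGGGGGCG was present in Fosb and Nr4a1 (2.57% of windows), and the ETS core CCGGAA in Nr4a1 and in another of the 5 Egr2 windows (12%). The AP-1 site TGACTCA was in none of the 7 genes' windows and in 4.46% of all windows. Both strands were searched. A match is a description of these letters and not a bound site.

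The most visible feature of these genes was a large difference between the 2 arrays of the same KsJ group, in which most members moved together. In lean KsJ islets of 6 weeks, Fos stood at 6.43 on replicate 1 and 11.05 on replicate 2, a 24.6-fold difference. Fosb stood at 4.32 and 10.05 on the same arrays, a 52.9-fold difference. Jun stood at 8.21 and 11.38, Egr1 at 6.65 and 9.89, and Dusp1 at 7.55 and 10.50. Replicate 2 was higher for all 9 members, with Junb at 6.06 and 8.62 and Ier2 at 5.58 and 7.30 in between. Egr2 (3.59 and 4.15) and Nr4a1 (7.88 and 8.46) differed least.

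In db/db islets of 6 weeks, replicate 2 was again the array with high AP-1 genes. Fos stood at 8.65 and 11.02 on replicates 1 and 2, Fosb at 6.81 and 9.40, Jun at 8.67 and 10.87 and Junb at 7.05 and 8.05. Egr1 stood at 7.65 and 9.81, Ier2 at 6.18 and 7.42 and Dusp1 at 8.47 and 10.19. The nuclear receptor gene Nr4a1 went the other way, from 10.90 on replicate 1 to 9.0 on replicate 2. Egr2 was near even at 4.10 and 3.84. So 7 of 9 members were higher on replicate 2.

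At 16 weeks replicate 1 was the high array in both KsJ groups. In lean islets Fos stood at 10.97 and 8.25, Fosb at 9.83 and 5.71, Jun at 11.19 and 9.41, and Junb at 8.31 and 6.24. Egr1 stood at 9.65 and 7.41, Ier2 at 7.59 and 7.07, Dusp1 at 10.30 and 7.19, Nr4a1 at 8.28 and 6.45, and Egr2 at 4.28 and 3.83. All 9 were higher on replicate 1. In db/db islets Fos stood at 10.79 and 8.71, Fosb at 8.37 and 6.53, Jun at 10.53 and 9.09, and Junb at 7.68 and 7.15. Egr1 stood at 9.21 and 7.85, Ier2 at 7.26 and 6.40, and Dusp1 at 9.67 and 8.35. Here 8 of 9 were higher on replicate 1, though Egr2 barely so at 4.72 and 4.68. Nr4a1 was higher on replicate 2 (8.02 and 9.08). Replicate numbers follow the order of deposit and carry no meaning of their own.

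The 6J arrays of a group lay close together. In lean 6J islets of 6 weeks Fos stood at 8.07 and 8.60, Fosb at 5.84 and 5.90, and Egr1 at 7.45 and 7.88. In ob/ob islets of that age Fos stood at 7.37 and 7.58, Fosb at 5.15 and 5.32, and Egr1 at 6.76 and 7.10. At 16 weeks lean 6J islets had Fos at 9.30 and 9.20, Fosb at 8.09 and 7.76, and Egr1 at 8.44 and 8.52. Those of ob/ob mice had Fos at 8.59 and 8.43, Fosb at 6.33 and 5.85, and Egr1 at 7.39 and 7.26. No 6J group had a member whose 2 arrays differed by more than 0.598. Every 6J value of Fos, from 7.37 to 9.30, lay inside the KsJ range of 6.43 to 11.05.

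**Figure D1:**
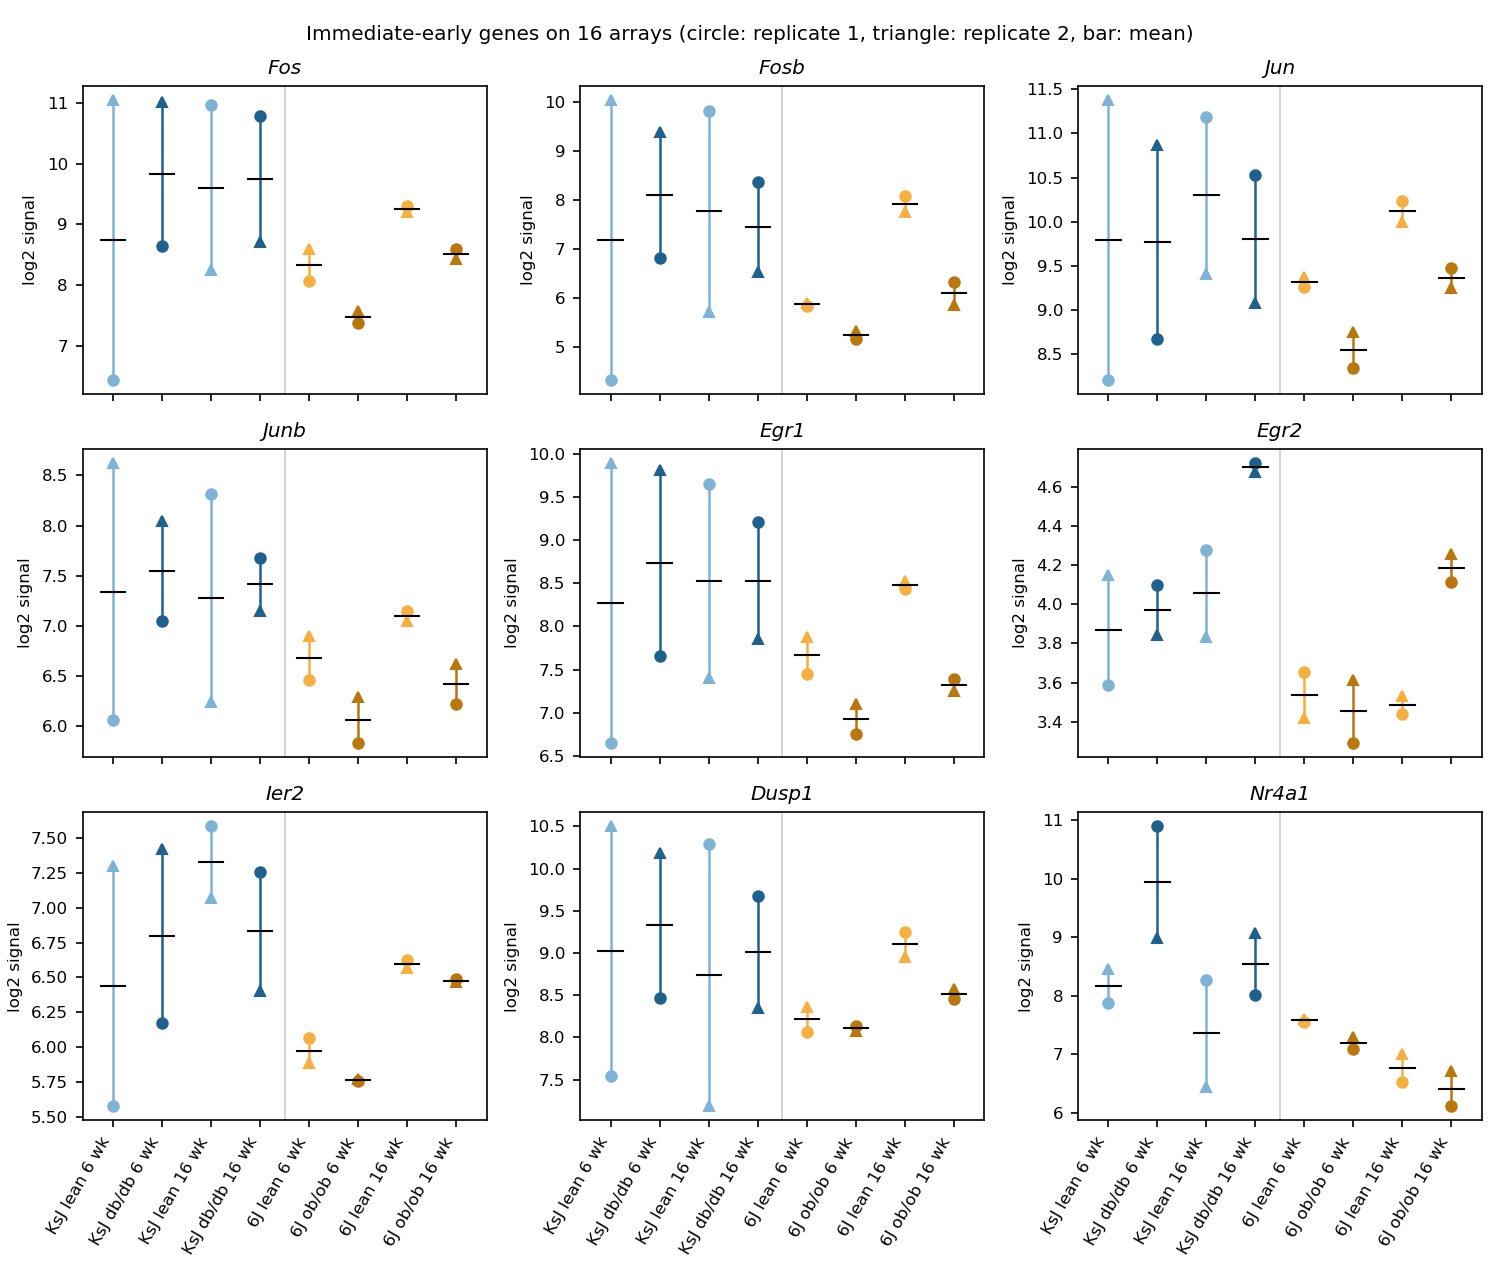
Log2 signal of the 9 immediate-early genes on 16 arrays, in 8 groups of 2; circles are replicate 1, triangles replicate 2, and bars the mean. The KsJ arrays (blue, left of the line) are far apart for most genes, with Fos spanning 6.43 to 11.05, whereas the 6J arrays (orange) of a group lie close together.

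The size of these differences can be set against all genes on the same arrays. The median difference between the 2 arrays over the 9 members was 2.95 in lean KsJ and 1.90 in db/db islets of 6 weeks, and 2.07 and 1.32 in these groups at 16 weeks. Over all 15526 genes tested it was 0.168, 0.233, 0.487 and 0.250 in that order. Members above the 95th percentile of all genes numbered 7, 8, 7 and 6 of 9. In the 6J groups the members' medians ran from 0.106 to 0.234, the all-gene medians from 0.152 to 0.271, and no member lay above the 95th percentile. For 7 of 9 members every KsJ difference was larger than every 6J difference, the exceptions being Egr2 and Nr4a1; of all genes tested 2.25% had this pattern. Without the acinar-rich lean KsJ group of 16 weeks it held for 7 of 9 members and 2.96% of all genes.

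The within-group standard deviation was 2.20 in KsJ and 0.211 in 6J islets for Fos, 2.74 and 0.215 for Fosb, and 1.70 and 0.154 for Dusp1. Ratios of these 2 values ranged from 1.76 for Egr2 and 3.67 for Nr4a1 to 12.7 for Fosb, against a median of 1.37 over all genes. Ranked by residual standard deviation over the 8 groups, Fosb was number 46 and Fos number 96 of 15526 genes. For Egr2, a dim gene on these arrays, 65.7% of genes varied more.

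**Figure D2:**
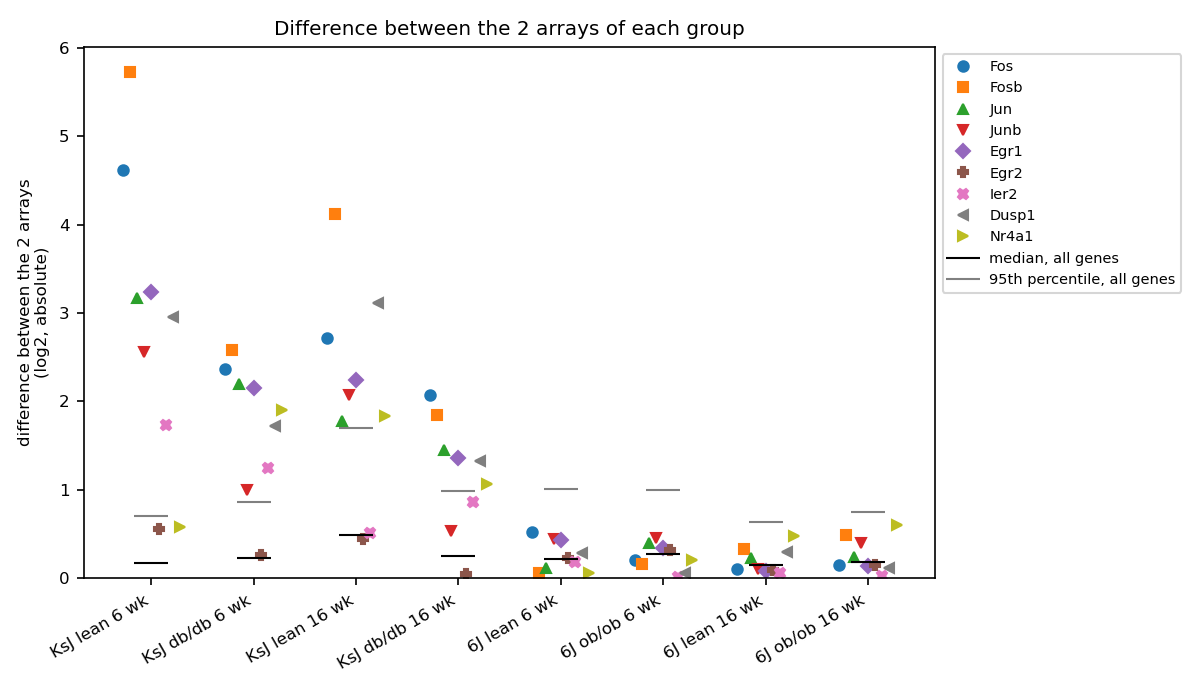
Absolute log2 difference between the 2 arrays of each group for the 9 immediate-early genes; black and grey bars give the median and the 95th percentile of 15526 genes. In the KsJ groups 6 to 8 of 9 genes lie above the 95th percentile, and in the 6J groups none does.

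Markers of other cell types, and sex-linked genes, were read on the same arrays. The acinar markers averaged 11.06 on the low-Fos array and 9.55 on the high-Fos array of lean KsJ islets of 6 weeks, but 8.22 and 10.14 on the low and high arrays of db/db islets of that age. At 16 weeks they were higher on the low-Fos array, at 12.97 against 10.21 in lean and 11.64 against 10.47 in db/db islets. The enterocyte markers averaged 9.29 on the low-Fos and 6.31 on the high-Fos array of db/db islets of 16 weeks, and 5.82 and 3.84 in lean ones. The 7 macrophage markers averaged more on the high-Fos array in all 4 KsJ groups. In lean islets they averaged 6.24 on the low and 6.29 on the high array at 6 weeks, and 5.16 and 5.69 at 16 weeks. The values for db/db islets were 6.31 and 6.39 at 6 weeks and 6.48 and 6.68 at 16 weeks. Uty, a Y-linked gene picked once its values had been seen, was at 7.65 on the low-Fos array of lean KsJ islets at 6 weeks and at 2.18 on the high one. At 16 weeks it stood at 7.86 on the high-Fos array and 2.49 on the low one. It was at or below 3.60 on all 4 db/db arrays. Xist, an X-linked gene expressed in females, went the other way. In lean KsJ islets it stood at 2.63 on the low-Fos and 9.40 on the high-Fos array at 6 weeks. At 16 weeks it stood at 8.90 on the low-Fos and 3.24 on the high-Fos array. It was at 8.46 to 9.31 on the db/db arrays. By these genes the arrays of each lean KsJ group differed in sex, and the db/db arrays were female. The part of cell mixture, sex or handling in these differences was not tested.

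Across the 16 arrays 21 of 36 pairs of members were correlated at an adjusted p below 0.05 (permutation test with 100000 resamples, two-sided, Benjamini-Hochberg over the 36 pairs). They were all the pairs among Fos, Fosb, Jun, Junb, Egr1, Ier2 and Dusp1. Pearson's r ran from 0.74 to 0.98 and Spearman's rho from 0.75 to 0.99 in these pairs, with no adjusted permutation p of r above 0.00211. Fos and Egr1 had an r of 0.97, Fos and Fosb one of 0.97, and Fos and Jun one of 0.95. Without the 2 arrays farthest from the median of the first gene of a pair, r ran from 0.60 to 0.96. Within the 8 KsJ arrays it ran from 0.72 to 0.99, and within the 8 6J arrays from 0.59 to 0.98. The arrays of a group share their mice's genotype and age, and those of a strain share a title code.

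Nr4a1 and Egr2 stood outside this set. The 8 pairs with Nr4a1 had an r between 0.07 and 0.47, and within 6J arrays between −0.72 and 0.00323. The 8 pairs with Egr2 had an r between 0.34 and 0.53. None of these 15 pairs passed the threshold in the same permutation test.

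**Figure D3:**
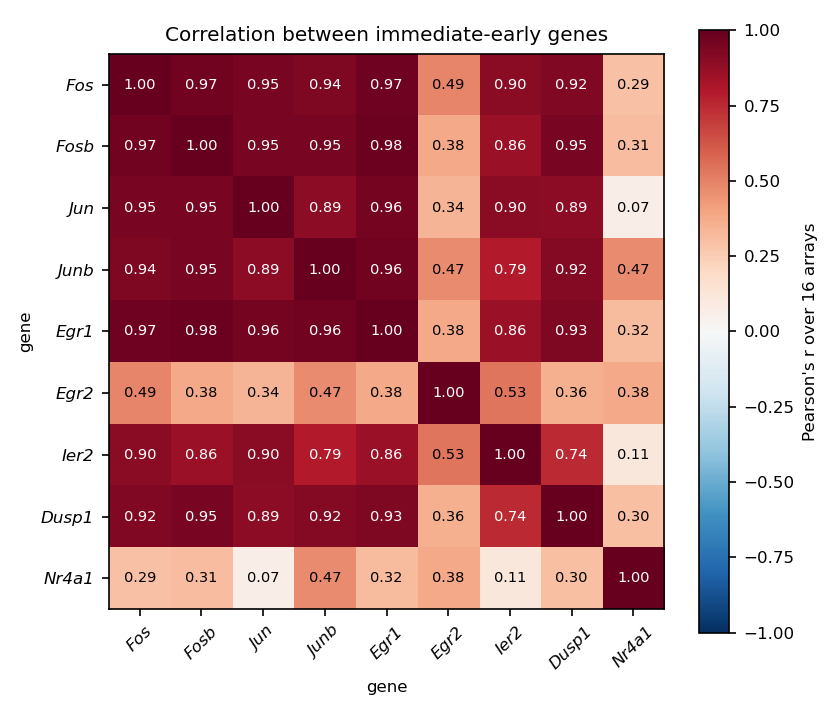
Pearson's r between the log2 signals of the 9 immediate-early genes over 16 arrays. Among Fos, Fosb, Jun, Junb, Egr1, Ier2 and Dusp1 r is 0.74 to 0.98, whereas the rows of Nr4a1 and Egr2 hold values of at most 0.53.

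Genes whose pattern was most like that of the members were sought among 14230 named genes, by Pearson's r over 16 arrays with the mean of the members' standardised values. Atf3, a stress-induced partner of Jun proteins, came first with an r of 0.94, followed by the sperm ion channel gene Catsper2 (0.93) and the G-protein regulator gene Rgs1 (0.91). Ppp1r15a, a stress-induced subunit of an eIF2alpha phosphatase, had an r of 0.86, the matrix protein gene Ccn1 0.85, and the Krüppel-like factor genes Klf2 and Klf6 0.84 and 0.83. The co-chaperone gene Dnajb1 had 0.83. After the group means were taken off, Atf3 again came first (0.96), and the heat shock gene Hspa1a entered at 0.95 and the antiproliferative gene Btg2 at 0.94. Catsper2, Cab39l, Rgs1, Dnajb1 and Msrb3 made up the other places, with an r of 0.93 to 0.95. Catsper2 spanned only 4.29 to 5.01 and Cab39l 8.30 to 9.05 over the 16 arrays. Within strains, r before the group means were taken off ran from 0.86 to 0.98 on KsJ arrays. On 6J arrays it ran from 0.20 for Ppp1r15a to 0.93 for Dnajb1. After the group means were taken off it ran from 0.94 to 0.98 on KsJ arrays. On 6J arrays it then ran from −0.013 for Atf3 to 0.59 for Hspa1a. The genes named are the top values of many and are given as a description.

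Atf3 and Hspa1a show how far the resemblance went. Atf3 stood at 4.90 and 8.61 on replicates 1 and 2 of lean KsJ islets at 6 weeks, and at 9.33 and 5.28 at 16 weeks. In db/db islets it stood at 6.37 and 8.53 at 6 weeks and at 8.68 and 6.70 at 16 weeks. On the 8 6J arrays it stayed between 4.68 and 5.51. Hspa1a, which encodes the inducible Hsp70 chaperone, stood at 6.97 and 9.26 on the lean KsJ arrays of 6 weeks and at 11.02 and 8.16 on those of 16 weeks. In lean 6J islets it stood at 8.22 and 7.80 at 6 weeks and at 10.14 and 9.95 at 16 weeks, so both later arrays were above both earlier ones.

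The members were then compared between obese and lean islets with limma, in 1 model over all 16 arrays with Benjamini-Hochberg adjustment over all 15526 genes, calling a gene at an adjusted p below 0.05. The standard errors of the members come from all 8 groups and so carry the spread of the KsJ arrays. In db/db against lean KsJ islets of 6 weeks, 0 of 9 members were called, against 0.0258% of all genes. At an unadjusted p below 0.05 there was 1 member, Nr4a1, against 8.52% of all genes. Nr4a1 stood at 10.90 and 9.0 on the db/db arrays and at 7.88 and 8.46 on the lean arrays, and the groups did not overlap, with both db/db arrays higher as for 21.9% of all genes. The difference was 1.78 ± 0.65 on the log2 scale (SE, 2 arrays a group), 3.43-fold, with an adjusted p of 0.539 in limma. With each of the 4 arrays left out in turn it ran from 0.83 to 2.73. The 8 other members overlapped, from −0.02 ± 0.97 for Jun to 1.09 ± 1.33 for Fos. Without lean replicate 1 the Fos difference was −1.22 and without lean replicate 2 it was 3.40.

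At 16 weeks, 0 of 9 members were called between db/db and lean KsJ islets, against 5.8% of all genes. Egr2 was the member with an unadjusted p below 0.05, against 24.5% of all genes. It stood at 4.72 and 4.68 in db/db and 4.28 and 3.83 in lean islets without overlap (both db/db arrays higher for 32.8% of all genes), a difference of 0.64 ± 0.23 with an adjusted p of 0.116 in limma. Nr4a1 differed by 1.19 ± 0.65 with overlapping arrays, and by 0.27 to 2.10 with an array left out. Fos differed by 0.14 ± 1.33, Fosb by −0.32 ± 1.65 and Egr1 by −0.0012 ± 1.01, all with overlap. Over all genes the median difference in this comparison was 0.18, which fell to −0.02 after each array was centred on its median. Without lean replicate 1, which had high Fos, limma called Egr2 (0.87, adjusted p 0.0252) and Nr4a1 (2.10, adjusted p 0.038), and 30.2% of all genes with them.

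The smaller table gave 1 lean and 1 db/db array of 16-week KsJ islets and was deposited apart from the larger one, so its differences have no replicate check. Fos stood at 8.71 in lean and 8.36 in db/db islets, Fosb at 6.67 and 5.81, Jun at 8.18 and 7.68, and Egr1 at 7.97 and 7.35. Nr4a1 stood at 6.82 and 6.85, and Egr2 at 5.02 and 4.99. In 7 of 9 members the db/db value was lower, with a median difference of −0.34, against 41.7% of all genes and a median of 0.09.

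In 6J islets most members were lower in obese than in lean mice on both arrays, by amounts that were small beside the spread of the KsJ arrays. At 6 weeks Fos stood at 7.37 and 7.58 in ob/ob and at 8.07 and 8.60 in lean 6J islets. Jun stood at 8.35 and 8.75 against 9.26 and 9.37, and Junb at 5.83 and 6.29 against 6.46 and 6.90. For 7 of 9 members both ob/ob arrays lay below both lean arrays, against 16.8% of all genes, while Egr2 and Dusp1 overlapped. In limma 0 of 9 members were called and 0 had an unadjusted p below 0.05, against 0% and 6.15% of all genes.

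The 6-week differences ran from −0.86 ± 1.33 for Fos, −0.77 ± 0.97 for Jun and −0.74 ± 1.01 for Egr1 to −0.08 ± 0.23 for Egr2. With each array centred on its median those of Egr2 and Dusp1 became 0.05 and 0.03. Without the enterocyte-rich lean replicate 2, Fos differed by −0.60, Jun by −0.71 and Egr1 by −0.52, and Dusp1 by 0.04. Beside this the 6 acinar markers had a median difference of 0.71, all 6 above 0, and the enterocyte markers one of −4.01. When the mean acinar and enterocyte levels were added to the model, Fos differed by −1.10 ± 1.40, Fosb by −1.09 ± 1.67, Jun by −1.09 ± 1.07 and Egr1 by −0.93 ± 1.09. Ier2 then differed by −0.47, Dusp1 by −0.37 and Egr2 by −0.15. The sizes fell for Junb (−0.60) and Nr4a1 (−0.09) and rose for the others, and limma called none. Uty stood at 7.25 and 7.61 in ob/ob and at 7.54 and 2.31 in lean islets of this age. Xist stood at 3.48 and 2.80 in ob/ob and at 4.27 and 9.46 in lean islets. By these genes both ob/ob arrays were male and the lean arrays differed in sex.

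At 16 weeks the gene Fosb had the largest difference among the members. It stood at 6.33 and 5.85 in ob/ob and at 8.09 and 7.76 in lean 6J islets, a difference of −1.83 ± 1.65 or 3.56-fold (SE, 2 arrays a group), with an adjusted p of 0.631 in limma. Egr1 stood at 7.39 and 7.26 against 8.44 and 8.52, a difference of −1.15 ± 1.01. Fos differed by −0.74 ± 1.33, Jun by −0.75 ± 0.97, Junb by −0.68 ± 0.77 and Dusp1 by −0.59 ± 1.03. For 7 of 9 members both ob/ob arrays lay below both lean arrays, against 33.3% of all genes, though Ier2 differed by only −0.12 ± 0.52. Nr4a1 overlapped (6.12 and 6.71 against 6.52 and 7.0). Egr2 went the other way, at 4.11 and 4.26 against 3.44 and 3.53, as did 28.2% of all genes.

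In limma 0 of 9 members were called at 16 weeks, against 0.0708% of all genes, and 1, Egr2, had an unadjusted p below 0.05, against 16.6%. Egr2 differed by 0.70 ± 0.23 with an adjusted p of 0.176. Because the members' spread differed so much between strains, the 8 arrays of each strain were also fitted alone, an alternative chosen after the values were seen. For ob/ob against lean 6J at 16 weeks this gave −1.83 ± 0.21 for Fosb (limma, unadjusted p 5.86e-05, adjusted p 0.0881) and −1.15 ± 0.20 for Egr1 (adjusted p 0.0988). Of the 9 members 7 had an unadjusted p below 0.05, against 21.9% of all genes, and 0 were called. At 6 weeks this model gave 5 of 9 against 8.26% of all genes, with 0 called. For db/db against lean KsJ islets the KsJ arrays alone gave 0 of 9 against 5.68% at 6 weeks and 1 of 9 against 17.9% at 16 weeks, with 0 called at either age. With only the 4 arrays of this comparison in the model, limma called Fos (adjusted p 0.0424), Fosb (0.0263) and Egr1 (0.023) lower and Egr2 (0.0453) higher in ob/ob islets, and 8.33% of all genes. With array weights it called Egr2 (adjusted p 0.0171) and 19.1% of all genes.

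The acinar markers also differed in this comparison, with a median of 1.15 and all 6 higher in ob/ob islets, at array means of 9.44 and 9.06 against 8.37 and 7.59. When the mean acinar and enterocyte levels were added to the model, Fos differed by 0.27 ± 1.28, Fosb by −0.52 ± 1.54, Egr1 by −0.43 ± 1.0 and Egr2 by 0.89 ± 0.20, so that the sign of Fos turned and the sizes for Fosb and Egr1 fell. The beta cell markers averaged 11.20 and 11.22 in ob/ob and 11.43 and 11.46 in lean islets. Uty stood between 2.17 and 2.33 on all 4 arrays.

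**Figure D4:**
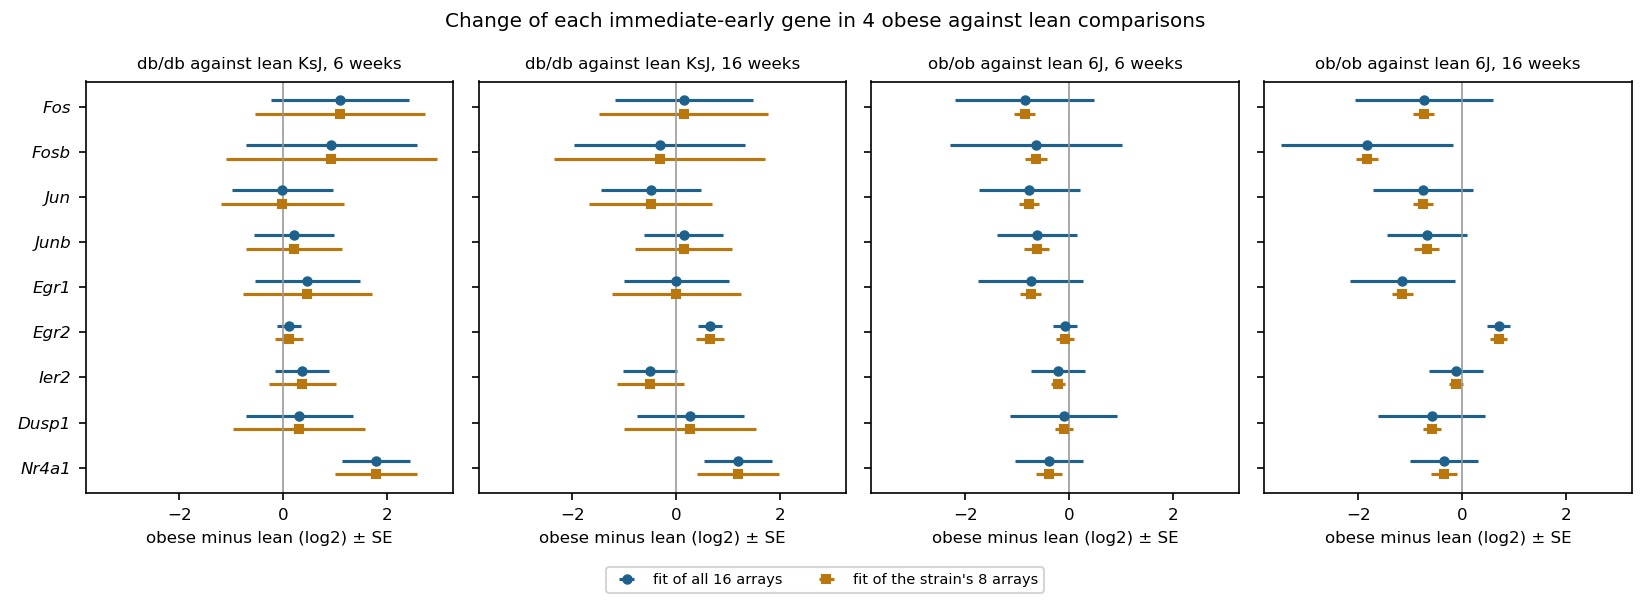
Log2 difference between obese and lean islets for the 9 immediate-early genes in 4 comparisons, with standard errors from the limma model of all 16 arrays (blue circles) and from that of the strain's own 8 arrays (brown squares). The estimates are the same in both models, and for ob/ob islets of 16 weeks the standard error of Fosb is 1.65 in the first and 0.21 in the second.

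The obese against lean differences of the 2 models were compared directly by the interaction. At 6 weeks 0 of 9 members were called (0% of all genes), and 1 had an unadjusted p below 0.05 (2.25% of all genes). It was Nr4a1, whose difference was 2.17 ± 0.92 larger in db/db than in ob/ob islets, with an adjusted p of 1 in limma. At 16 weeks 0 of 9 members were called (0.0129% of all genes), and 0 had an unadjusted p below 0.05 (15.6% of all genes). The interaction was 1.51 ± 2.33 for Fosb and 1.15 ± 1.43 for Egr1, and −0.06 ± 0.32 for Egr2. In the larger table Egr2 was higher in both obese models at this age but called in neither. In the smaller table it stood at 5.02 in lean KsJ and 4.99 in db/db islets. Whether the obese against lean difference changed from 6 to 16 weeks was tested as well, with 0 of 9 members called in either model (0.00644% of all genes for db/db and 0% for ob/ob). Egr2 in ob/ob islets had an unadjusted p below 0.05 there (0.78 ± 0.32, adjusted p 1 in limma), against 2.77% of all genes, and no member did in db/db islets, against 13.1%.

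Age was compared within each kind of mouse. In lean 6J islets both 16-week arrays lay above both 6-week arrays for 7 of 9 members, against 21.9% of all genes. Fosb was at 8.09 and 7.76 at 16 weeks and at 5.84 and 5.90 at 6 weeks, a 4.15-fold difference of 2.05 ± 1.65, and Fos at 9.30 and 9.20 against 8.07 and 8.60. Dusp1 was at 9.25 and 8.95 against 8.07 and 8.36, and Ier2 at 6.63 and 6.57 against 6.06 and 5.88. Nr4a1 went the other way, at 6.52 and 7.0 against 7.55 and 7.61, as 13.7% of all genes did. In limma 0 of 9 members were called, against 0% of all genes, and at an unadjusted p below 0.05 there were 0, against 2.87%. In the model of the 6J arrays alone 7 had an unadjusted p below 0.05, against 4.12% of all genes. The smallest was 2.84e-05 for Fosb, with an adjusted p of 0.238 in limma, and 0 were called. When the mean acinar and enterocyte levels were added to the model of all arrays, Fosb differed by 0.73 ± 1.69, Fos by 0.014 ± 1.41, Jun by 0.09 and Dusp1 by 0.041, and Junb by −0.0063. Lean 6J islets of 6 weeks included the enterocyte-rich array and 1 array with high Uty, those of 16 weeks neither.

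In ob/ob islets 7 of 9 members were likewise higher on both 16-week arrays, against 16.9% of all genes, with Junb overlapping and Nr4a1 lower (19.4% of all genes were). Fos stood at 8.59 and 8.43 at 16 weeks against 7.37 and 7.58 at 6 weeks, Fosb at 6.33 and 5.85 against 5.15 and 5.32, and Ier2 at 6.49 and 6.47 against 5.76 and 5.77. Egr2 stood at 4.11 and 4.26 against 3.29 and 3.61, and was the member with an unadjusted p below 0.05 in limma (0.73 ± 0.23, adjusted p 0.999), against 3.9% of all genes. No member was called, as in 0% of all genes. In the model of the 6J arrays alone 6 of 9 had an unadjusted p below 0.05, against 7% of all genes, and 0 were called. With acinar and enterocyte levels in the model of all arrays Fos differed by 1.38 ± 1.19, Fosb by 1.31 ± 1.43 and Egr2 by 0.80 ± 0.19. Both 6-week ob/ob arrays had high Uty and low Xist, and both 16-week arrays the reverse. Age and sex, or whatever else goes with these genes, cannot be told apart in ob/ob islets.

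In KsJ islets the ages overlapped for most members. In lean KsJ islets 0 of 9 members were called, against 0% of all genes, and 0 had an unadjusted p below 0.05 in limma, against 26.3%. All 9 overlapped, while of all genes 8.03% were higher and 44.1% lower on both 16-week arrays. In db/db islets 0 were called, against 0.0644%. Egr2 again had the unadjusted p below 0.05 (against 7.61% of all genes), at 4.72 and 4.68 at 16 weeks and 4.10 and 3.84 at 6 weeks without overlap (higher for 18.2% of all genes), a difference of 0.73 ± 0.23 with an adjusted p of 0.439 in limma. Nr4a1 differed by −1.40 ± 0.65 between the ages in db/db islets, with overlap. With the KsJ arrays alone 0 of 9 members in lean islets and 1 of 9 in db/db islets had an unadjusted p below 0.05, against 15.8% and 5.94% of all genes. The age differences of Fos, Fosb, Junb, Egr1 and Dusp1 in db/db islets turned with acinar and enterocyte levels in the model of all arrays. Those of Jun, Ier2, Egr2 and Nr4a1 kept their sign, with Egr2 at 1.16 ± 0.25 and Nr4a1 at −0.47 ± 0.69. In db/db islets Fos went from −0.08 ± 1.33 to 2.05 ± 1.60, Fosb from −0.66 ± 1.65 to 2.24 ± 1.92, Egr1 from −0.20 to 1.35 and Dusp1 from −0.32 to 1.60. In lean KsJ islets Fos went from 0.86 to 2.07 and Dusp1 from −0.28 to 0.79. None was called either way by limma.

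Between the lean mice of the 2 strains 0 of 9 members were called at 6 weeks and 0 at 16 weeks, against 0.258% and 4.12% of all genes. At 6 weeks 0 had an unadjusted p below 0.05 in limma, against 6.65%, and at 16 weeks Egr2 did, against 29.5%. Lean 6J islets were lower in Egr2 at 16 weeks by −0.57 ± 0.23, with an adjusted p of 0.131 in limma. Nr4a1 was lower on both lean 6J arrays at 6 weeks, at 7.55 and 7.61 against 7.88 and 8.46, as were 26.2% of all genes. At 16 weeks Egr2 and Ier2 were lower on both, against 11.2% of all genes.

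Ordered by group mean, the genes fell into different sequences, but neighbouring groups overlapped in most places. Fos, Fosb, Jun, Junb, Egr1, Egr2, Ier2 and Dusp1 were all lowest in ob/ob islets of 6 weeks, and Nr4a1 was lowest in ob/ob islets of 16 weeks. Nr4a1 was highest in db/db islets of 6 weeks (mean 9.95, SD 1.35, n = 2), then in db/db islets of 16 weeks (8.55, SD 0.75) and lean KsJ islets of 6 weeks (8.17, SD 0.41). The second of these groups overlapped the first and the third, while the first and the third did not overlap. The third stood apart from the next group, lean 6J islets of 6 weeks (7.58, SD 0.04). Egr2 was highest in db/db islets of 16 weeks (4.70, SD 0.03, n = 2), which stood apart from the next group, ob/ob islets of 16 weeks (4.19, SD 0.10). For Fosb the lowest group stood apart from lean 6J islets of 6 weeks (5.23 against 5.87), and all other neighbours overlapped.

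Other genes of the same response were read from lists chosen with earlier results of these data known. A list of 35 other immediate-early genes shared the direction of the members between the KsJ arrays, to a smaller degree. Its median difference of replicate 2 from replicate 1 was 0.66 in lean KsJ and 0.41 in db/db islets of 6 weeks, and −0.76 and −0.22 at 16 weeks. There were 32, 26, 8 and 13 of 35 genes higher on replicate 2 in these groups, and 16 or 17 in each 6J group. The 11 heat shock genes had medians of 0.21, 0.21, −0.46 and −0.27 in the same order, and of −0.07 to 0.21 in the 6J groups. The 13 cytokine response genes, known from isolated islets, had 0.47, −0.14, −0.25 and −0.91, and −0.04 to 0.33 in the 6J groups. The 9 other AP-1 subunits and partners stayed between −0.11 and 0.15 in all 8 groups, and the 22 kinases and promoter factors between −0.21 and 0.18.

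**Figure D5:**
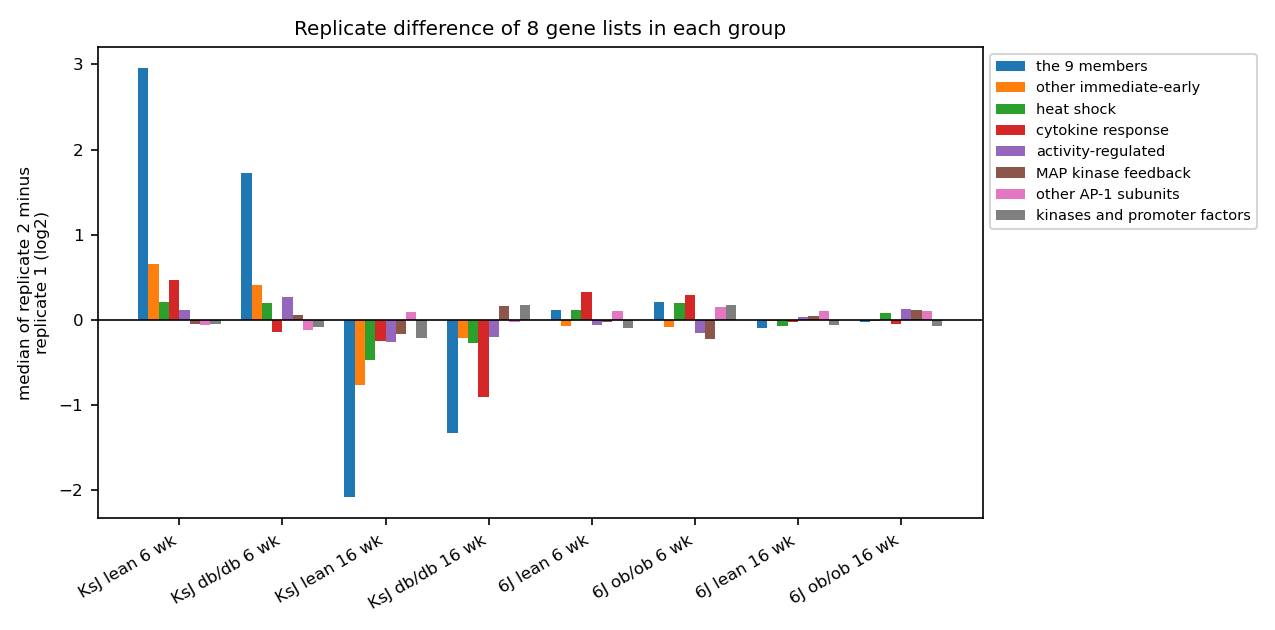
Median log2 difference of replicate 2 from replicate 1 in each group, for the 9 members and 7 lists of related genes; bars above 0 are higher on replicate 2. In the KsJ groups the members reach 2.95, 1.72, −2.07 and −1.32, the 35 other immediate-early genes go the same way at 0.66, 0.41, −0.76 and −0.22, and in the 6J groups the members stay between −0.09 and 0.21.

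Between obese and lean islets, 0 of the 117 genes tested from these 7 lists were called by limma at 6 weeks in either obese model, and 0 in ob/ob islets at 16 weeks. At an unadjusted p below 0.05 there were 10 in db/db and 4 in ob/ob islets at 6 weeks and 18 in ob/ob islets at 16 weeks, which is 8.55%, 3.42% and 15.4% of them, against 8.52%, 6.15% and 16.6% of all genes. In db/db islets of 16 weeks there were 28, or 23.9%, against 24.5%. In db/db islets of 16 weeks 10 of the 117 genes rose, and none fell, beside 5.8% of all genes called either way. Over all genes 34.3% had a difference below 0 in this comparison. Both db/db arrays were higher for 32.8% of all genes and lower for 10.4%. Of the 17 feedback genes, which restrain MAP kinases or EGR factors, 4 rose, with a list median of 0.41 against 0.18 over all genes. The MAP kinase phosphatase genes Dusp6 and Dusp5 rose by 3.14 ± 0.75 (limma, adjusted p 0.0379) and 1.68 ± 0.27 (adjusted p 0.0159). Dusp6 stood at 9.33 and 9.34 in db/db and at 7.51 and 4.87 in lean islets, and Dusp5 at 7.96 and 8.15 against 6.71 and 6.05. Dusp16, a phosphatase of stress-activated kinases, rose by 0.97 ± 0.21, and Nab2, a corepressor of EGR proteins, by 0.93 ± 0.19.

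Of the 35 other immediate-early genes 2 rose, with a list median of 0.45. Klf10, a zinc-finger factor induced by TGF-beta, rose by 1.52 ± 0.33 (limma, adjusted p 0.0293), and Nr4a2, a relative of Nr4a1, by 1.38 ± 0.32 (adjusted p 0.0352). Nr4a2 is also among the 12 activity-regulated genes, of which 2 rose; the other was Rgs4, a regulator of G-protein signals, by 1.41 ± 0.36. The kinase gene Prkaca, the catalytic subunit of protein kinase A, was the only one of 22 kinases and promoter factors to rise, by 0.55 ± 0.14. The co-chaperone gene Bag3 rose by 1.40 ± 0.23 (limma, adjusted p 0.0159), as 1 of 11 heat shock genes, and the heme oxygenase gene Hmox1 by 1.40 ± 0.34, as 1 of 13 cytokine response genes. Of the 9 other AP-1 subunits 0 were called, and 1 had an unadjusted p below 0.05.

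All 10 differences stayed above 0 when each of the 4 arrays was left out, but without the acinar-rich lean replicate 2 none of the 10 was called. Without either db/db array 1 of 10 was called, and without lean replicate 1 all 10. After quantile normalization or median centring 2 of 10 were called, and with acinar and enterocyte covariates 8 of 10. In the smaller table all 10 were higher on the db/db array, by 2.05 for Dusp6, 0.88 for Dusp5, 0.72 for Nr4a2 and 1.52 for Klf10. Of all genes tested 41.7% were lower on that db/db array. The 10 had been picked because they rose in the larger table. In the same comparison the 8 enterocyte markers had a median difference of 3.17, all 8 above 0, of which Vil1 rose. Of 5 duct markers Krt7 rose, but 3 of the 5 differences were below 0, with a median of −0.16. The 6 acinar markers had a median difference of −0.43, with 4 of 6 below 0. Among the 9 beta cell markers Mafa fell, and 5 of 9 were below 0. Of the remaining lists 4 of 7 macrophage, 4 of 6 stellate and 2 of 6 endothelial markers rose. The macrophage means were 6.68 and 6.48 in db/db against 5.69 and 5.16 in lean islets. Beyond the acinar and enterocyte covariates, the part of these cell types in the 10 differences, and in that of Egr2, was not tested. For none of the 10 was the db/db difference shown to differ from the ob/ob one at 16 weeks, with adjusted p of 0.0782 or more in limma.

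In ob/ob islets of 16 weeks the list genes nearest the threshold were the AP-1 partner gene Atf7 (−0.65 ± 0.16; limma, adjusted p 0.105), Dusp16 (−0.79 ± 0.21, adjusted p 0.124) and the kinase gene Rps6ka5 (−1.47 ± 0.40, adjusted p 0.125), none of them called. The neuronal activity gene Npas4 differed by −2.52 ± 0.75 (limma, adjusted p 0.15), the stress gene Gadd45b by −1.83 ± 0.51 (adjusted p 0.133) and Nr4a2 by 1.07 ± 0.32 (adjusted p 0.153). The list medians were −0.13 for activity-regulated genes and −0.06 for other immediate-early genes, against −0.03 over all genes.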

How the data were processed

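Per the labels, islet RNA was read on Affymetrix Mouse Gene arrays. The authors deposited log2 signals, 1 for each of 41034 transcript clusters. MAS5, RMA and Partek appear in the submitters' processing notes, with no roles. Their order was not given in the sources used here, nor was any background correction. The platform annotation gave 1 gene for 23521 clusters. A gene with several clusters was read from its brightest, and genes with a mean under the 30th percentile (2.99) were dropped. Group means were fitted over the larger table's 16 arrays with limma 3.58.1 (R 4.3.3, eBayes, 8 residual degrees of freedom), with two-sided p-values and Benjamini-Hochberg adjustment. The number of arrays limits the precision. The 2 tables were tested separately. The fitting code was tested on simulated data. Members, lists and tests were chosen with earlier results of these data known. Named were all members, list genes that were called, up to 3 genes a list with the smallest p, the 8 most alike genes by each measure and fixed marker genes. Alternatives covered filters, scaling, variance models, array weights, clusters, arrays left out and covariates. Correlations were tested over 36 pairs, since Fosl1 was not measured alone. Promoter sequences were those of RefSeq on GRCm38.p6. Figures used matplotlib 3.10.9 in Python 3.11.15.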

Additional observations from a re-analysis of the deposited data

Results flagged for a closer look

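The nuclear receptor gene Nr4a1 was higher on both db/db arrays than on both lean KsJ arrays at 6 weeks and lower on both ob/ob arrays than on both lean 6J arrays, which drew attention to it. The db/db difference exceeded the ob/ob difference by 2.17 ± 0.92 on the log2 scale (limma, unadjusted p 0.0379, adjusted p 1), so the difference was not called. With acinar and enterocyte covariates in the model, Nr4a1 differed at 6 weeks by 1.24 ± 0.55 in db/db and by −0.09 ± 0.60 in ob/ob islets. The groups of 2 arrays were too small for a search for outlying samples.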

How the results depend on the processing

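Of the member differences, none was called in the model of all 16 arrays, and those that changed sign were all uncalled. In db/db against lean KsJ islets of 16 weeks, Fos, Junb and Dusp1 differed by −0.12, −0.22 and −0.078 after quantile normalization, Fos and Junb by −0.055 and −0.060 after median centring, and Fos by −0.019 with both tables joined. Without the 3 arrays rich in markers of other tissues, Fos, Junb, Dusp1 and Nr4a1 differed there by −0.18, −0.63, −0.63 and −0.26. Median centring gave Egr2 0.053 and Dusp1 0.030 in ob/ob islets of 6 weeks, and leaving out the 3 arrays gave Dusp1 0.038. With acinar and enterocyte covariates Junb, Egr1, Egr2 and Dusp1 differed by −0.31, −0.041, −0.027 and −0.30 in db/db islets of 6 weeks, and Fosb and Egr1 by 0.094 and 0.18 at 16 weeks. In ob/ob islets of 16 weeks the covariates gave Fos, Junb, Ier2, Dusp1 and Nr4a1 0.27, 0.0017, 0.092, 0.30 and 0.27.

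Leaving out each array in turn moved the db/db difference of 6 weeks from −1.22 to 3.40 for Fos, −1.94 to 3.78 for Fosb, −1.61 to 1.56 for Jun, −1.08 to 1.49 for Junb, −1.16 to 2.08 for Egr1, −0.18 to 0.38 for Egr2, −0.50 to 1.23 for Ier2 and −1.17 to 1.78 for Dusp1. At 16 weeks it moved from −1.22 to 1.5 for Fos, −2.38 to 1.74 for Fosb, −1.38 to 0.40 for Jun, −0.90 to 1.18 for Junb, −1.12 to 1.12 for Egr1 and −1.29 to 1.82 for Dusp1. In ob/ob islets of 6 weeks it moved from −0.24 to 0.079 for Egr2 and −0.25 to 0.038 for Dusp1. The ob/ob differences of 16 weeks did not change sign when an array was left out. The count of members called was 0 to 2 for db/db islets of 16 weeks with an array left out, 1 for ob/ob islets of 16 weeks with array weights and 4 with the compared groups alone, where fewer arrays set the spread. In the other comparisons, those of obese and lean islets at 6 weeks, of ages, of lean strains and of effects, it stayed at 0 under every alternative run. Over all genes, the 900 called in db/db islets of 16 weeks became 178 after quantile normalization, 174 after median centring, 0 with array weights, 6 with the compared groups alone and 2084 with both tables joined. They became 4687 without lean KsJ replicate 1 and 118 without replicate 2. In ob/ob islets of 16 weeks the 11 became 2969 with array weights and 1293 with the compared groups alone. Of 36 pairs of members 21 passed the threshold with array medians taken off too. Apart from the constructions named, the cause was not tested. With 2 arrays a group, signal and replication limit what can be told. No paired analysis was possible because the labels carry no replicate numbers that the groups share.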
